A study of Mus musculus with 6 samples.

Results

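Bone morphogenetic protein (BMP) signalling was described through 10 genes of the pathway: the ligand genes Bmp4, Bmp6 and Bmp7, the type I receptor genes Bmpr1a, Bmpr1b and Acvr1, the type II receptor gene Bmpr2, the inhibitory Smad genes Smad6 and Smad7, and Nog, which encodes the secreted antagonist noggin. They were chosen by gene symbol among 55802 genes, and all 10 were found. Expression had been measured by RNA-seq in primary neural stem cells isolated from the subventricular zone (SVZ) of adult C57BL/6 mice and kept in B27-supplemented medium. Cells were infected for 24 h with an adenoviral vector for SETD4 plus green fluorescent protein (ADV-SETD4-GFP, SETD4 OE, n = 3) or with the same kind of virus carrying the fluorescent protein alone (ADV-GFP, genotype WT, control, n = 3). Every library therefore came from infected cells, and the labels do not say which promoter drives SETD4, how many animals were pooled or whether replicates were separate cultures. P-values thus measure the spread between these libraries, which may be technical.

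BMPs are secreted dimers of the TGF-beta superfamily. They bring type I and type II receptor serine/threonine kinases together. The type II receptor phosphorylates the type I receptor, which phosphorylates Smad1, Smad5 and Smad9, and these enter the nucleus with Smad4 and switch on targets such as the Id genes. Smad6 and Smad7 are themselves induced by the pathway and block it at the receptor, while noggin binds ligands outside the cell. In the SVZ, BMP signals favour glial fate and quiescence of stem cells, and noggin from the ependymal lining is known to oppose them.

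Values were taken as FPKM, fragments per kilobase of gene scaled to library size, so levels of different genes can be compared. The file headers name no unit, and the values fit this one. The 6 libraries held 14924273 to 18078717 reads in the listed genes. The library size behind the values was 0.973 to 0.994 times these reads in the controls and 1.04 to 1.05 times in SETD4 OE. The part of this offset in small changes such as those of Acvr1 and Nog was not tested. Setd4 was at 0.952 to 1.53 FPKM in the controls and 296 to 346 FPKM with SETD4 OE, viral and endogenous reads together. All 10 neural stem cell and progenitor markers checked, among them Sox2, Nes, Pax6 and Gfap, had a mean of at least 1 FPKM. They also moved between the groups without overlap, 7 higher and 3 lower in SETD4 OE. Nes was at 99.0 to 130 FPKM in the controls and 36.5 to 45.9 with SETD4 OE, and Gfap at 304 to 331 and 1346 to 1432 FPKM. Groups were compared with limma on log2(FPKM + 1) over the 12994 genes whose mean reached 1 FPKM, and a gene is called changed at a Benjamini-Hochberg adjusted p under 0.05. Changes were frequent in the whole table, with 60.0% of tested genes called, 26.0% higher and 33.9% lower in SETD4 OE. Some scalings shifted the median log2 fold change of all tested genes from -0.06 to 0.06 (equal sums), 0.07 (upper quartile) or 0.09 (without mitochondrial and the 10 most abundant genes). The split of calls went from 3384 higher and 4406 lower to 4261 and 3351, 4405 and 3259, and 4570 and 3049 in that order. Median of ratios gave -0.07, with 3267 higher and 4597 lower. The trimmed mean of M-values gave -0.008 (3733 and 3939) and quantile normalization -0.002 (3723 and 3769).

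Of the 10 genes, 9 passed the filter on low values. Of those, 4 were called higher (Bmp4, Bmp6, Bmpr1a, Bmpr1b), 2 lower (Bmp7, Acvr1) and 3 were not called (Bmpr2, Smad7, Nog). Smad6, at a mean just under 1 FPKM, was tested only in the fit without a filter, where 26.0% of 30911 genes were called, and it did not pass. Bmp4 and Bmp6 passed the filter through their SETD4 OE levels, and both were also called without it. The median log2 fold change of the 9 tested members, these 2 included, was 0.46, against -0.06 over all tested genes. It was 0.30 without control replicate 1 (all tested genes -0.07) and 0.30 without SETD4 OE replicate 3 (all tested genes -0.06). Over all 10 genes without a filter it was 0.36 (all tested genes 0.01). In the same 6 genes the ranges of the groups did not overlap, 4 higher and 2 lower, where 29.1% of tested genes were higher and 36.9% lower without overlap. Without control replicate 1, the library described at the end, 4 were called higher and 1 lower, with Acvr1 lost.

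**Figure D1:**
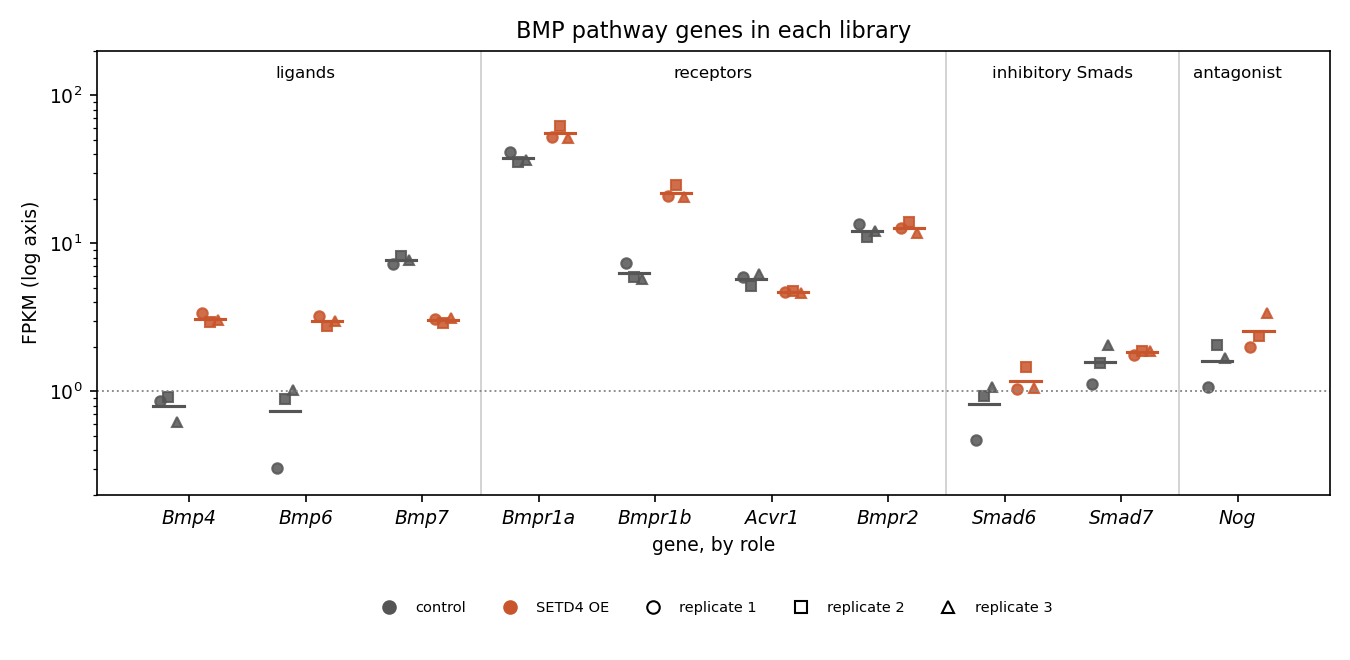
FPKM (log axis) of the 10 genes in each library, grouped by role, with controls in grey and SETD4 OE in orange, replicate numbers as marker shapes and short bars for group means. Bmp4, Bmp6, Bmpr1a and Bmpr1b lie higher and Bmp7 and Acvr1 lower in all 3 SETD4 OE libraries. Control replicate 1 is the lowest control for Bmp6, Bmp7, Smad6, Smad7 and Nog, as it is for 42.6% of tested genes. The dotted line marks 1 FPKM.

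To show the sequence in front of genes that rose, 4 promoter windows are given, those of Bmp4 and Bmp6, the ligand genes that rose, and of Bmpr1b and Bmpr1a, the type I receptor genes that rose by different amounts. Each window runs from 250 bases before to 50 bases after a RefSeq start, on build GRCm38.p6, which is not the mm39 build of the deposited tables. RefSeq windows were matched for 7 of the 10 members. Letters in capitals mark GTCT, the core of the Smad box, and GGCGCC, a GC-rich element bound by Smads, searched on both strands, so GTCT also appears as AGAC. The outermost of 3 listed Bmpr1b starts is shown, since the gene-level values do not tell starts apart.
Bmp4, chr14:46390620-46390919, minus strand: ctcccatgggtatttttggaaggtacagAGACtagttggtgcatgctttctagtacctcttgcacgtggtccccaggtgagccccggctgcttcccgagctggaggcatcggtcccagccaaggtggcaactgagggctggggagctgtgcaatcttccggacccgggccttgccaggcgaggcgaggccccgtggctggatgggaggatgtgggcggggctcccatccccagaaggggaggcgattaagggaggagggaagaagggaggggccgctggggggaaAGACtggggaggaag
Bmp6, chr13:38345466-38345765, plus strand: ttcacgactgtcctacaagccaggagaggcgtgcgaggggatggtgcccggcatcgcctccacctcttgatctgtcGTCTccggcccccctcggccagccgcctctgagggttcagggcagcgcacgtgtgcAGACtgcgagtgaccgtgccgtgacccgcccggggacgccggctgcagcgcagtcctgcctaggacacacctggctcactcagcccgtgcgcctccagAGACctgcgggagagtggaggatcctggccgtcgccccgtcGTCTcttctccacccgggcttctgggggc
Bmpr1b, chr3:141982215-141982514, minus strand: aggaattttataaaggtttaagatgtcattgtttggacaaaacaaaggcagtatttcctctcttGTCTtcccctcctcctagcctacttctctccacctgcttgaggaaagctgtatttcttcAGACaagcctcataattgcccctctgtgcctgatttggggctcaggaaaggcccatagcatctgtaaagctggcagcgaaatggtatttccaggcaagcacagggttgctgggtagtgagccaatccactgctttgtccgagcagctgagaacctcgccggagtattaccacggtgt
Bmpr1a, chr14:34502497-34502796, minus strand: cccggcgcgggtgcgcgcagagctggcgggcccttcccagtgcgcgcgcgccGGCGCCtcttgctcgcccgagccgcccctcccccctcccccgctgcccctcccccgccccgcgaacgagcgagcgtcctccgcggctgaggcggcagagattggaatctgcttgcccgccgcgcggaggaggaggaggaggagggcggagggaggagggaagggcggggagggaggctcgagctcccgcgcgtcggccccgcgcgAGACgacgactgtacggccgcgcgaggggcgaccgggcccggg

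The 4 windows differed in base composition. G and C made up 64.0% of the Bmp4 window, 69.3% of the Bmp6 window and 79.3% of the Bmpr1a window, with 12, 27 and 48 CpG dinucleotides. The Bmpr1b window had 48.3% and 5 CpG, below the medians of 52.7% and 7 over all 32851 windows. The 2 other Bmpr1b windows, not printed, had 55.7% and 53.0%, just above the median, with 6 CpG each, and held GTCT 3 and 8 times. GGCGCC occurred once in the Bmpr1a window, at position -198 from the start, and not in the other windows shown. It was found in 11.9% of all windows. GTCT occurred 2 times in Bmp4, 4 times in Bmp6, 2 times in Bmpr1b and 1 time in Bmpr1a, but 88.0% of all windows held at least 1. A match is only a match of letters, and no binding was measured here.

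The ligand genes changed in opposite directions, and their sum stayed level. Bmp7 fell while Bmp4 and Bmp6 rose, so that the 3 genes, which were at very unequal levels in the controls, reached nearly equal levels in SETD4 OE. Their summed level was 9.21 ± 0.795 FPKM in the controls and 9.12 ± 0.535 FPKM with SETD4 OE (mean ± SD, n = 3 each), with overlapping ranges. Bmp7 made up 83.5 ± 2.27% of this sum in the controls and 33.3 ± 1.38% in SETD4 OE. The share of Bmp4 went from 8.67 ± 1.86% to 33.9 ± 0.885% and that of Bmp6 from 7.83 ± 3.78% to 32.8 ± 0.695%. The ranges of all 3 shares were apart between the groups. These are shares of mRNA levels and are given as a description, with no test.

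Bmp7 (ENSMUSG00000008999; mm39 chr2:172709805-172782114, minus strand) encodes a ligand of the BMP5/6/7 subgroup. It stood at 7.22, 8.17 and 7.65 FPKM in control replicates 1 to 3 and at 3.06, 2.90 and 3.14 FPKM in SETD4 OE. Every control lay far above every SETD4 OE library, with a log2 fold change of -1.11 (SE 0.07, adjusted p = 1.40e-05, limma). Behind these values were 465 to 578 reads per control library and 181 to 210 per SETD4 OE library. Bmp7 was called lower under all 18 alternatives, at -1.34 to -0.96.

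Bmp4 (ENSMUSG00000021835; mm39 chr14:46620977-46628126, minus strand) encodes the ligand best known for directing SVZ precursors to an astroglial fate. Its level was 0.861, 0.910 and 0.615 FPKM in the controls and 3.35, 2.92 and 3.02 FPKM with SETD4 OE. All SETD4 OE libraries lay above all controls, at a ratio of means of 3.89. Limma gave a log2 fold change of 1.19 (SE 0.10, adjusted p = 6.45e-05, limma), and 1.95 with limma-voom on the reads recovered from the FPKM values, since adding 1 compresses genes at this level. These rest on 22 to 36 reads per control library, whose exact Poisson 95% interval for control replicate 3 was 0.386 to 0.932 FPKM, counting error only. Gm15222, a long non-coding RNA gene on the opposite strand within Bmp4, had 1, 2 and 0 reads in the controls and 18, 7 and 24 in SETD4 OE. The strand setting of the counting was not given in the sources used here, so reads of the pair cannot be told apart.

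Bmp6 (ENSMUSG00000039004; mm39 chr13:38529083-38684278, plus strand) encodes a close relative of BMP7. It was at 0.304, 0.889 and 1.02 FPKM in the controls, where replicate 1 stood apart with 19 reads against 61 and 63. In SETD4 OE it was at 3.23, 2.76 and 2.99 FPKM, above every control. Its log2 fold change came to 1.22 (SE 0.17, adjusted p = 7.24e-04, limma), 1.03 without control replicate 1 and 2.17 with limma-voom. On the FPKM scale the ratio of means was 4.06, or 3.14 without that library. The gene shares 224 bases with Txndc5 on the opposite strand, which was at 37.1 ± 2.04 FPKM in the controls and 31.3 ± 1.88 in SETD4 OE. The part of this overlap in the Bmp6 values was not tested.

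**Figure D2:**
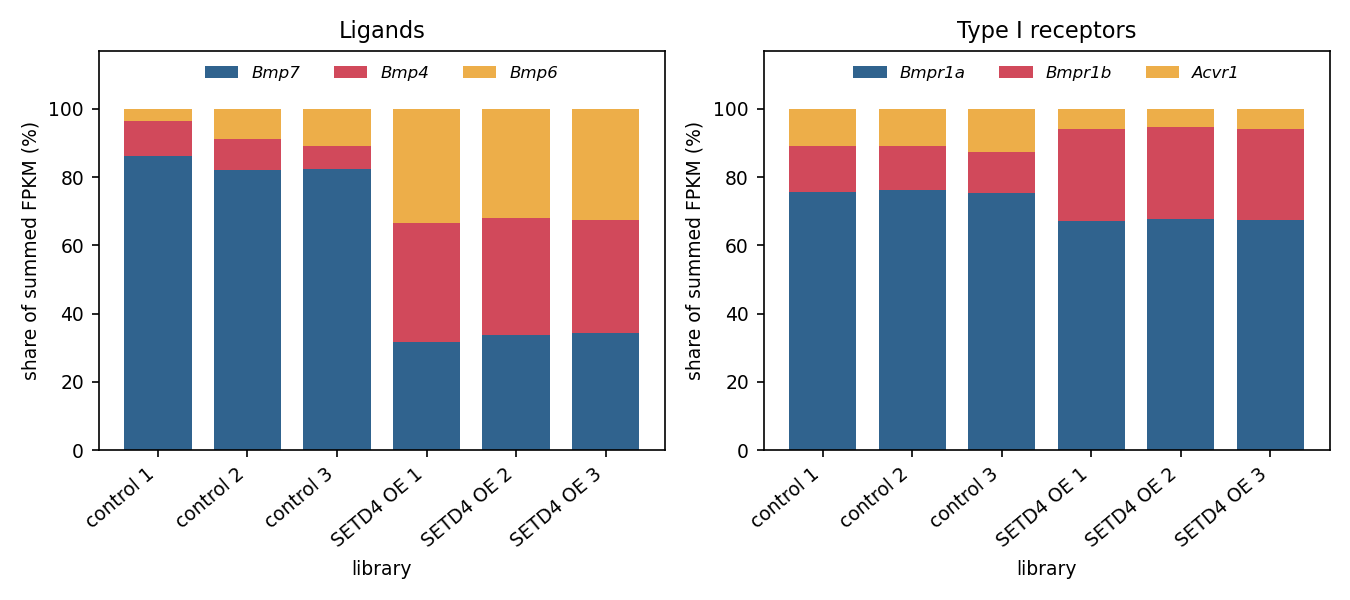
Share (%) of each gene in the summed FPKM of the 3 ligand genes (left) and of the 3 type I receptor genes (right), 1 bar per library. Bmp7 takes 82.0 to 86.1% of the ligand sum in the controls and 31.7 to 34.3% in SETD4 OE, and Bmpr1b takes 11.9 to 13.5% and 26.7 to 27.1% of the type I receptor sum.

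Among the receptors, 2 type I receptor genes rose, the other one fell slightly and the type II receptor gene was not called. The summed level of the 4 receptor genes was 62.0 ± 5.57 FPKM in the controls and 94.6 ± 9.04 FPKM with SETD4 OE, without overlap. By FPKM, type I receptor transcripts were 4.09 ± 0.120 times as abundant as Bmpr2 in the controls and 6.41 ± 0.225 times in SETD4 OE. The size of these ratios rests on the deposited gene lengths, 17983 bases for Bmpr2 and 4829 to 6351 bases for the type I receptor genes.

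Bmpr1b (ENSMUSG00000052430; mm39 chr3:141542897-141875186, minus strand) encodes the type I receptor ALK6. On the log2(FPKM + 1) scale it had the largest change of the 10 genes, whereas the ratios of means of Bmp4 and Bmp6 and their limma-voom and pseudocount 0.1 values were larger. Without control replicate 1 the ratio of means was 4.06 for Bmp4, 3.78 for Bmpr1b and 3.14 for Bmp6. Bmpr1b went from 7.36, 5.90 and 5.75 FPKM in the controls to 20.9, 24.7 and 20.5 FPKM in SETD4 OE. The groups were far apart, with a ratio of means of 3.48 and 545 to 2289 reads per library. This gave a log2 fold change of 1.65 (SE 0.11, adjusted p = 2.04e-05, limma), and 120 of the 3384 genes called higher had a larger one. No gene of the deposited tables overlaps it, and it was called under all 18 alternatives, at 1.57 to 1.81.

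Bmpr1a (ENSMUSG00000021796; mm39 chr14:34132691-34225298, minus strand) encodes the type I receptor ALK3 and was the most abundant member in every library. Its level was 41.4, 35.4 and 36.3 FPKM in the controls and 52.2, 61.7 and 51.6 FPKM with SETD4 OE, again without overlap. The rise was smaller than that of Bmpr1b, at a log2 fold change of 0.54 (SE 0.09, adjusted p = 2.01e-03, limma), with a 95% interval of 0.32 to 0.75 that did not reach the interval of Bmpr1b (1.40 to 1.90). Bmpr1a transcripts were 5.62, 6.01 and 6.32 times as abundant as those of Bmpr1b in the controls. In SETD4 OE this ratio was 2.50, 2.50 and 2.52, nearly the same in all 3 libraries although the level of each gene varied between them. Both transcripts have a similar base composition, described at the end, and its part in this ratio was not tested.

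Acvr1 (ENSMUSG00000026836; mm39 chr2:58278656-58457169, minus strand) encodes ALK2, a type I receptor that BMP6 and BMP7 use. It was at 5.91, 5.12 and 6.16 FPKM in the controls and 4.71, 4.74 and 4.59 FPKM with SETD4 OE. The ranges were apart but close, and the log2 fold change came to -0.24 (SE 0.07, adjusted p = 0.0245, limma). This call was fragile. The adjusted p was 0.0591 without control replicate 1, 0.0902 without control replicate 3 and above the threshold without any of SETD4 OE replicates 1 (0.0631), 2 (0.0518) and 3 (0.0693). The call was also lost with equal sums or upper-quartile scaling, and 7 of 18 alternatives kept it. Over all alternatives it ranged from 0.00843 to 0.413.

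Bmpr2 (ENSMUSG00000067336; mm39 chr1:59802559-59918173, plus strand) encodes the BMP type II receptor. It was at 13.5, 11.0 and 12.03 FPKM in the controls and 12.6, 13.9 and 11.8 FPKM with SETD4 OE, fully intermixed. The log2 fold change was 0.06 with a 95% interval of -0.15 to 0.28 (adjusted p = 0.569, limma). With 3441 to 3901 reads per library the depth was not the limit. The spread between libraries of a group was far above counting error for this gene, at a chi-square per degree of freedom of 40.8 in the controls and 25.5 in SETD4 OE. Bmpr1a, Bmpr1b and Bmpr2 shared the order of libraries in part. Each was highest in replicate 1 among the controls and in replicate 2 among the SETD4 OE libraries.

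**Figure D3:**
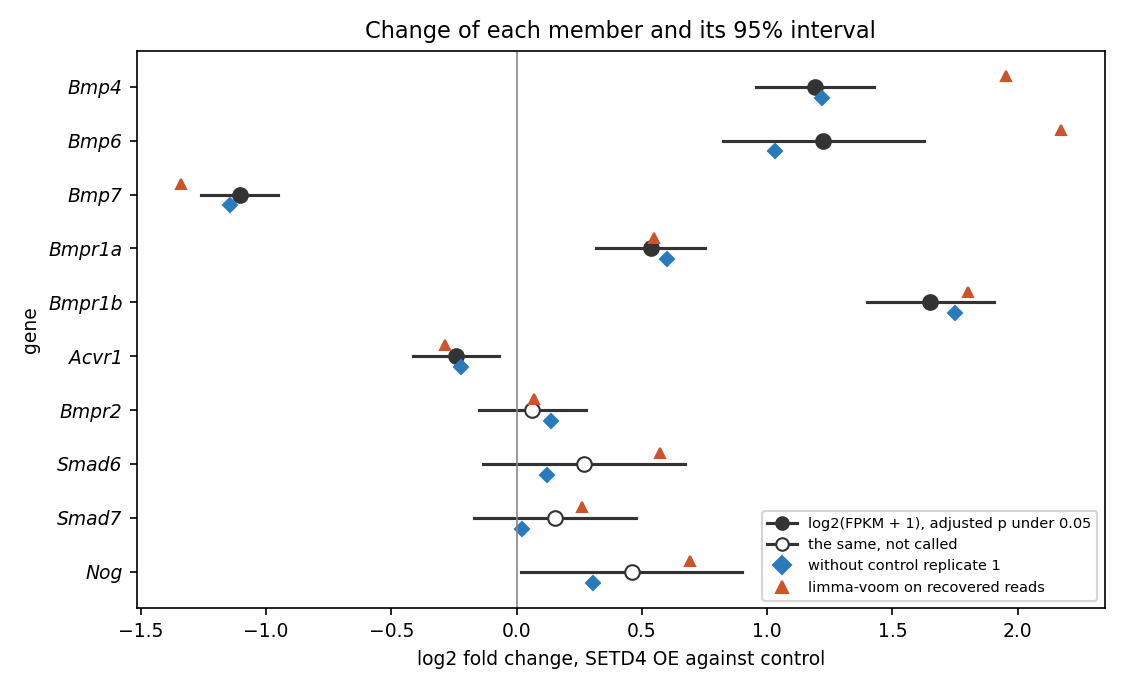
Log2 fold change of each gene (circles, filled where the adjusted p is under 0.05) with its 95% interval from limma, beside the value without control replicate 1 (diamonds) and with limma-voom on recovered reads (triangles). Bmpr1b reaches 1.65 and Bmp7 -1.11, the triangles of Bmp4 and Bmp6 lie at 1.95 and 2.17, and the intervals of Bmpr2, Smad6 and Smad7 include 0; Smad6 comes from the fit without a filter.

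No inhibitory Smad gene was called changed. Smad6 and Smad7 encode the intracellular antagonists of the pathway and are also used as its read-outs. Smad7 (ENSMUSG00000025880; mm39 chr18:75500600-75529006, plus strand) was at 1.12, 1.56 and 2.04 FPKM in the controls and 1.77, 1.86 and 1.87 FPKM with SETD4 OE. The SETD4 OE values lay inside the range of the controls. The log2 fold change was 0.15 with a 95% interval of -0.17 to 0.48 (adjusted p = 0.361, limma), and 0.02 without control replicate 1.

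Smad6 (ENSMUSG00000036867; mm39 chr9:63860358-63929341, minus strand) was at 0.467, 0.922 and 1.06 FPKM in the controls and 1.03, 1.45 and 1.05 FPKM with SETD4 OE. These values overlapped and rested on 24 to 72 reads per library. The log2 fold change was 0.27 with a 95% interval of -0.13 to 0.67 (adjusted p = 0.330, limma without a filter), and 0.12 without control replicate 1. A change as large as that of Bmp4 lay outside both intervals, while smaller changes lay within them. The sum of Smad6 and Smad7 was 2.39 ± 0.763 FPKM in the controls and 3.01 ± 0.269 FPKM with SETD4 OE, overlapping.

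Nog (ENSMUSG00000048616; mm39 chr11:89191464-89193158, minus strand) encodes noggin, which binds BMP ligands and keeps them from their receptors. It was at 1.07, 2.05 and 1.67 FPKM in the controls and 1.98, 2.35 and 3.36 FPKM with SETD4 OE. The ranges overlapped by 1 library on each side, and the spread was wide in both groups. Its log2 fold change came to 0.46 (SE 0.19, 95% interval 0.02 to 0.90), and the adjusted p of 0.0691 (limma) missed the threshold. It passed under 5 of 17 alternatives, among them equal sums (0.0294) and without control replicate 2 (0.0430), and was 0.170 without control replicate 1. Noggin transcripts per summed ligand FPKM were 0.127, 0.205 and 0.180 in the controls and 0.205, 0.275 and 0.368 in SETD4 OE, so the groups met at 0.205.

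Ordered by level, the controls had Bmpr1a first, then Bmpr2, and then Bmp7, Bmpr1b and Acvr1, whose neighbouring ranges overlapped. Nog and Smad7 followed at 1.59 and 1.57 FPKM, and Smad6, Bmp4 and Bmp6 came last at 0.816, 0.795 and 0.736 FPKM, with Nog overlapping Smad7 and the last 3 genes overlapping each other. In SETD4 OE, Bmpr1b at 22.0 FPKM stood above Bmpr2 at 12.8 FPKM without overlap, and Acvr1 at 4.68 FPKM stood above all 3 ligands. Bmp4, Bmp7 and Bmp6 were within their spread of each other at 3.10, 3.03 and 2.99 FPKM, with Nog, Smad7 and Smad6 below them by mean.

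The rest of the pathway was followed through 67 further genes in 7 lists, of which 36 were tested. Of these, 16 were higher and 7 lower, and the median of their log2 fold changes was 0.16. These counts, and those of the single lists below, stand beside 26.0% of all tested genes called higher and 33.9% lower. The lists had been written with earlier results of these data known and carry no test of their own.

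**Figure D4:**
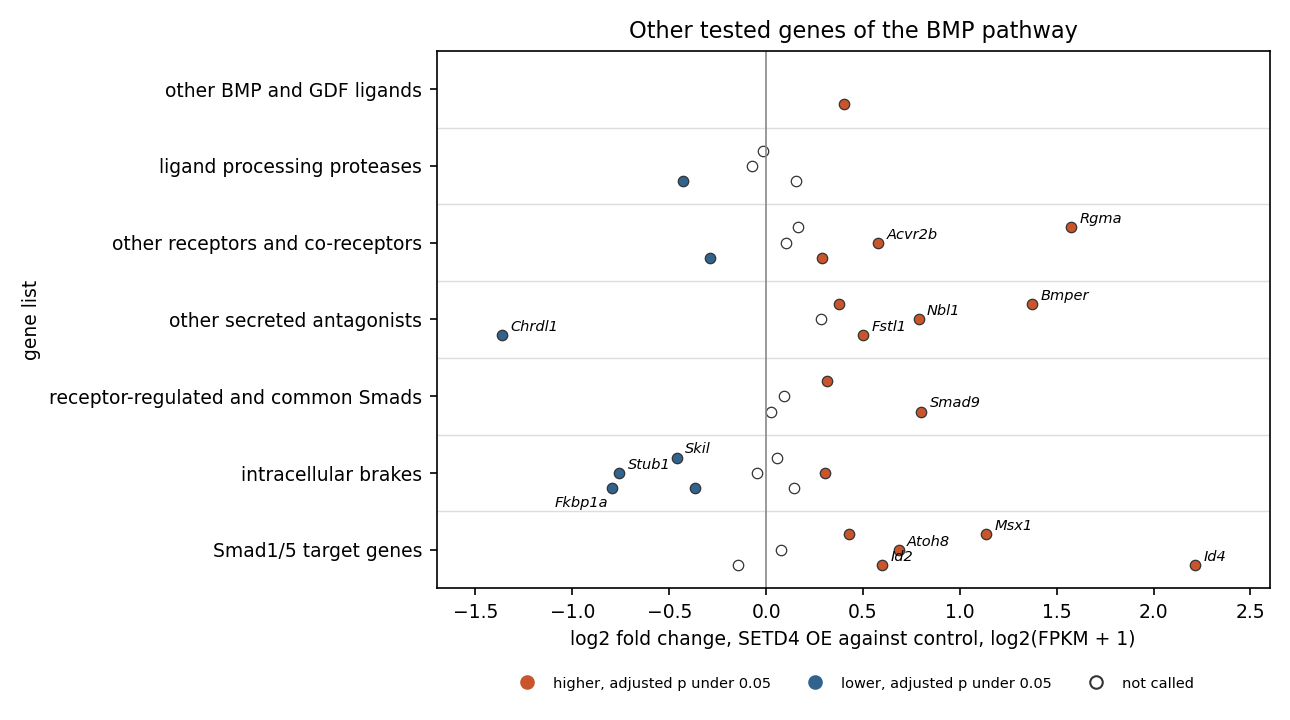
Log2 fold change on the log2(FPKM + 1) scale of the 36 tested genes of 7 lists, 1 point per gene, coloured where the adjusted p (limma) is under 0.05 and open where not. Rgma, Bmper and Id4 lie farthest to the right at 1.58, 1.37 and 2.21, Chrdl1 farthest to the left at -1.36, and 4 of the 7 lower genes are intracellular brakes.

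Of 12 other BMP and GDF ligand genes, 1 was expressed above the filter. Bmp2, a close relative of Bmp4, was at 0.702, 0.735 and 0.814 FPKM in the controls and 1.64, 0.905 and 1.47 FPKM with SETD4 OE (log2 fold change 0.40, adjusted p = 0.0425, limma), a call lost without control replicate 1, without a filter on low values and under 6 other alternatives, with an adjusted p of up to 0.134. It passed the filter through its SETD4 OE level, since its control mean was 0.750 FPKM. Among 4 tested genes of ligand-processing proteases, 1 was lower and 3 were not called. Pcsk6, a proprotein convertase, fell from 6.45 ± 0.446 to 4.53 ± 0.383 FPKM. Furin, the main convertase of BMP precursors, was at 8.23 ± 0.808 and 8.14 ± 0.687 FPKM.

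Of 6 tested receptor and co-receptor genes, 3 were higher and 1 lower (4 and 0 with equal sums, 3 and 0 without control replicate 1). Rgma, whose product is a membrane-anchored BMP co-receptor and ligand of neogenin, was at 25.2, 25.5 and 25.6 FPKM in the controls and 78.0, 74.9 and 80.8 FPKM with SETD4 OE. All SETD4 OE libraries lay far above the controls, at a log2 fold change of 1.58 (SE 0.05, adjusted p = 2.12e-06, limma). Acvr2b, an activin type II receptor that can also pair with BMP receptors, rose from 1.06 ± 0.136 to 2.08 ± 0.265 FPKM, and the neogenin gene Neo1, named after its value was seen, from 18.3 ± 1.22 to 22.5 ± 0.978 FPKM. Bambi, a decoy receptor without kinase domain, was the lower gene at 1.93 ± 0.0594 and 1.40 ± 0.254 FPKM (adjusted p = 0.0421, and up to 0.193 under the alternatives).

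Secreted antagonists went in both directions. Of 16 listed genes 6 were tested, 4 were higher and 1 lower. Bmper, whose product binds BMPs and can block or aid them, was at 2.85, 2.81 and 2.82 FPKM in the controls and 8.64, 9.04 and 9.12 FPKM with SETD4 OE (log2 fold change of 1.37 with an SE of 0.05). Nbl1, which encodes an antagonist of the DAN family, rose from 31.3 ± 4.02 to 54.6 ± 5.86 FPKM. Chrdl1, the chordin-like antagonist also called neuralin, fell from 8.65, 7.38 and 7.65 FPKM to 2.22, 2.50 and 2.63 FPKM (log2 fold change of -1.36 with an SE of 0.08). On the FPKM scale Nbl1 was thus the most abundant of the antagonist genes named here, noggin included, in both groups.

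Of the 4 Smads that carry the signal, 2 were higher and none lower. Smad9, the least abundant, rose from 1.20, 1.39 and 0.902 FPKM to 2.50, 3.18 and 2.61 FPKM (log2 fold change of 0.80 with an SE of 0.12, adjusted p = 9.79e-04, limma). Smad1 rose from 8.17 ± 0.275 to 10.4 ± 0.335 FPKM. Smad5 was at 25.3 ± 0.435 and 25.7 ± 2.03 FPKM and the common partner Smad4 at 28.3 ± 1.17 and 30.2 ± 1.54 FPKM, and neither passed (adjusted p = 0.773 and 0.218, limma). Smad5 had a log2 fold change of 0.02, and ran from -0.03 to 0.20 under the alternatives.

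Of 8 intracellular brakes, 1 was higher and 4 were lower (3 and 4 with equal sums, upper-quartile scaling or quantile normalization). Fkbp1a, whose product FKBP12 holds type I receptors inactive, fell from 104, 119 and 113 FPKM to 63.2, 63.6 and 65.7 FPKM (log2 fold change of -0.79 with an SE of 0.06). Stub1, which encodes a ubiquitin ligase that can degrade Smads, fell from 24.8 ± 5.05 to 14.2 ± 2.83 FPKM. Skil, encoding the Smad co-repressor SnoN, fell from 5.88 ± 0.444 to 3.99 ± 0.0485 FPKM.

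Known targets of Smad1 and Smad5 were uneven. Of 7 tested targets 5 were higher and none lower, without control replicate 1 as well. Id4 went from 6.16 ± 0.252 to 32.2 ± 1.68 FPKM (log2 fold change 2.21), Id2 from 77.9 ± 2.59 to 119 ± 6.02 FPKM (0.60) and Id3 from 166 ± 25.5 to 222 ± 15.3 FPKM (0.43, adjusted p = 0.0186, limma, and 0.0618 without SETD4 OE replicate 3). Id1, often taken as the most direct read-out, was at 78.7, 115 and 105 FPKM in the controls and 85.5, 79.8 and 103 FPKM with SETD4 OE. These values overlapped, with a log2 fold change of -0.15 (adjusted p = 0.443, limma) that ran from -0.30 to 0.05 under the alternatives. The homeobox gene Msx1 rose from 1.30 ± 0.124 to 4.08 ± 0.656 FPKM, and Atoh8 from 2.64 ± 0.680 to 4.79 ± 0.303 FPKM.

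Markers of other cells that make or sense BMPs moved with the groups. In bulk RNA, more cells of a type and more RNA per cell cannot be told apart. The counts here and in the next paragraph are of markers whose ranges did not overlap between the groups. Over all tested genes, 29.1% were higher and 36.9% lower in this way. All 8 choroid plexus markers were higher in every SETD4 OE library, their sum running from 254 to 285 FPKM in the controls and 635 to 725 FPKM with SETD4 OE, or from 8.38 to 9.53 and 20.7 to 23.3 FPKM without Ttr. Ependymal markers, 7 of 8 higher without overlap, summed to 26.1 to 31.3 and 63.0 to 81.4 FPKM. Markers of meningeal and perivascular fibroblasts, 5 of 8 higher and 1 lower, summed to 7.42 to 7.95 and 13.1 to 14.6 FPKM. Their part in the changes of Bmp4, Bmp6, Nog and Bmpr1b was not tested.

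Markers of oligodendrocytes (7 of 7 higher, sum 42.5 to 45.8 and 83.8 to 90.8 FPKM) and of astrocytes (5 of 6 higher, 332 to 368 and 674 to 683 FPKM) also moved with the groups. Those of oligodendrocyte precursors were split, 4 of 6 higher and 2 lower, at 1149 to 1286 and 709 to 766 FPKM. Pericyte and smooth muscle markers (4 of 7 higher, 1 lower) summed to 33.3 to 38.7 and 19.2 to 24.7 FPKM, but to 4.56 to 5.68 and 9.52 to 11.96 FPKM without Acta2. Neuronal markers (3 of 6 higher, 1 lower) summed to 8.79 to 9.61 and 2.89 to 3.52 FPKM, but to 1.41 to 1.54 and 2.45 to 2.82 FPKM without Nefl. Neuroblast markers (2 of 7 higher, 1 lower) summed to 110 to 118 and 85.7 to 97.3 FPKM, and to 17.7 to 21.0 and 21.0 to 24.5 FPKM without Cd24a. In each of these 3 lists the lower sum thus rested on 1 gene. Of 8 endothelial markers 7 stayed below 0.5 FPKM in every library, with Cldn5 and Tie1 at 0. The list summed to 3.90 to 4.28 and 1.22 to 1.48 FPKM, or 0.595 to 0.716 and 0.600 to 0.817 FPKM without Flt1. Of 9 microglial markers none reached a mean of 1 FPKM, and their sum was 1.09 to 1.32 and 2.31 to 2.51 FPKM.

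Control replicate 1 stood apart from the other controls for several members, and base composition moved with this. Mitochondrially encoded genes held 3.78% of its reads, against 2.45% in both other controls and 3.52 to 3.73% in SETD4 OE. Relative to the mean of control replicates 2 and 3, its level was 0.319 for Bmp6, 0.472 for Smad6, 0.575 for Nog and 0.621 for Smad7. The transcripts of these 4 genes have 56.2 to 60.8% G and C and fall in the highest of 5 equal bins of the tested genes by composition. Its level was 1.15 for Bmpr1a, 1.18 for Bmpr2 and 1.26 for Bmpr1b, whose transcripts have 41.0 to 42.2% and fall in the lowest bin. Acvr1, in the middle bin, was at 1.05. In the bin next to the highest, Bmp7 was at 0.913 but Bmp4 at 1.13.

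**Figure D5:**
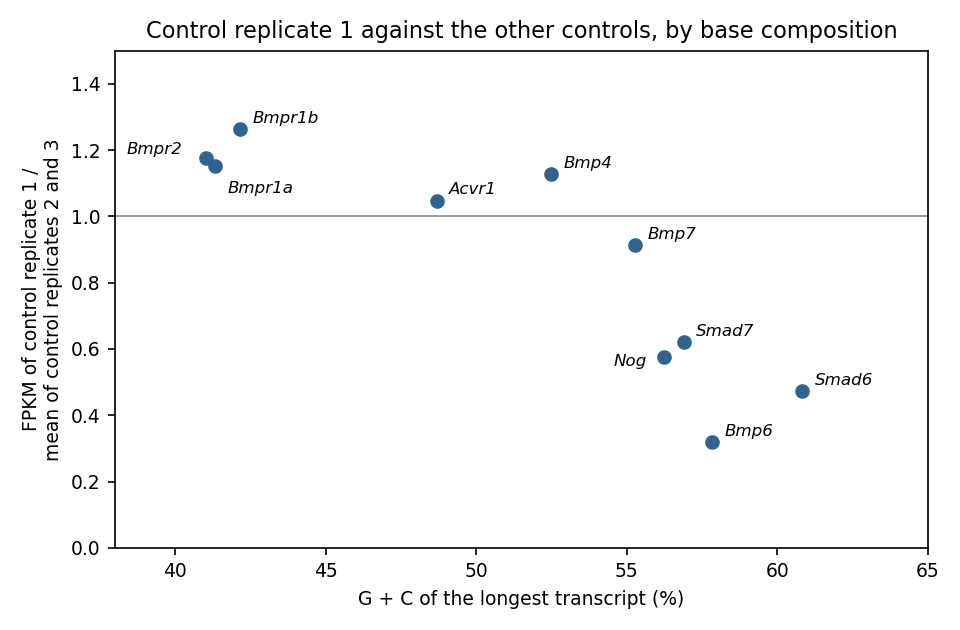
FPKM of control replicate 1 divided by the mean of control replicates 2 and 3, against the G and C content (%) of each gene's longest transcript, 1 point per gene. The 3 receptor genes near 41% lie at 1.15 to 1.26, and Nog, Smad7, Bmp6 and Smad6 lie at 0.319 to 0.621; the line marks equal levels.

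The same held across the table in smaller steps. Over 12816 tested genes with a known composition, the median log2 difference of control replicate 1 from the other controls went from 0.13 in the lowest of these bins to -0.16 in the highest. Measured from the mean of all 3 controls instead, these medians for control replicate 1 were 0.09 and -0.10. SETD4 OE replicate 2 deviated from its group mean, taken likewise, in the same sense, by 0.07 and -0.07. The members followed this only in part. Relative to the mean of SETD4 OE replicates 1 and 3, its level was 1.19 for Bmpr1a, 1.19 for Bmpr1b and 1.14 for Bmpr2. In the highest bin it was 0.886 for Bmp6 and 0.881 for Nog, but 1.03 for Smad7 and 1.39 for Smad6. Between the groups the median log2 fold change ran only from -0.03 to -0.08 over the 5 bins. For Bmp6, Smad6, Smad7 and Nog the values without control replicate 1 are given above. The part of composition in the values of single genes was not tested.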

How the data were processed

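RNA-seq had been done on 6 libraries, 3 control and 3 SETD4 OE, grouped and numbered by their titles. Reads were aligned with HISAT2 2.0.5 to mm39, per the submitters' processing notes. How reads were counted, with which annotation and strand setting, is not given in the sources used here. For each group the authors deposited a table of FPKM with the position and length of every gene. Multiplied by length, FPKM fell on whole multiples of 1 step per library for 100% of values above 0 (tolerance 0.05 reads), which gave the reads behind each value; the median over tested genes was 546 reads. Libraries of a group differed by more than sampling noise (chi-square per degree of freedom 3.89 to 16.3), which does not tell separate cultures from repeated preparations of 1 culture.

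The 12994 genes whose mean reached 1 FPKM were tested with limma 3.58.1 in R 4.3.3 on log2(FPKM + 1), with a mean-variance trend, two-sided, without a replicate block, and Benjamini-Hochberg adjustment over all tested genes. On data simulated for this comparison (12660 genes tested) the step recovered 73.7% of genes changed 1.5-fold and 97.8% of those changed 3-fold, and called 13 unchanged genes. Only 99 and 91 tested genes were changed in that simulation. Every gene had the same dispersion (0.00344), and libraries had no trend with base composition. In the data 60.0% of tested genes were called and such a trend was present, so these rates may not carry over. Intervals on reads are exact Poisson and cover counting error only. Alternatives were a pseudocount of 0.1, other filters, 5 other scalings, limma-voom on recovered reads, no trend, removal of abundant genes, the replicate block and leaving out each library.

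The members and lists were chosen with earlier results of these data known. Named were all 10 members, Setd4, the 4 signalling Smads, Id1 to Id4, and up to 3 called genes with the largest change per list. Furin, Neo1 and the marker genes given by name were added after their values were seen. Promoter windows are from RefSeq (GRCm38.p6), and base composition is that of the longest GENCODE M21 transcript, matched by gene identifier. Figures were drawn with matplotlib 3.10.9.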

Additional observations from a re-analysis of the deposited data

How the results depend on the processing

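Bmp4, Bmp6, Bmp7, Bmpr1a and Bmpr1b kept their direction and their call under every alternative that tested them; a filter at a mean of 5 FPKM left only Bmp7, Bmpr1a, Bmpr1b, Acvr1 and Bmpr2 in the test. Acvr1 was no longer called with equal sums (-0.13), upper-quartile scaling (-0.12), the trimmed mean of M-values (-0.19), without mitochondrial and the 10 most abundant genes (-0.093) and without a filter (-0.24), and ran from -0.31 to -0.20 when 1 library was left out. Nog was called with equal sums (0.55), upper-quartile scaling (0.56) and without the abundant genes (0.58), and ran from 0.30 to 0.58 over the left-out libraries. Bmpr2 was not called under any of its 18 alternatives. It ran from -0.0033 (without control replicate 2) to 0.14 (without control replicate 1) over the left-out libraries, and up to 0.23 without the abundant genes. The median over tested members was 0.30 without control replicate 1 or without SETD4 OE replicate 3. With the filter at 5 FPKM it was 0.06, against -0.13 over all tested genes. The number of genes called was 6683 to 7840 with 1 library left out. With the replicate number as a block, 6941 genes were called, Acvr1 was not (-0.24) and Nog was (0.46). The labels do not say whether the numbers pair the libraries. Deviations of same-numbered libraries from their group means correlated at -0.07, -0.23 and 0.08 across genes. Those of differently numbered libraries ran from -0.25 to 0.30, with control replicate 2 and SETD4 OE replicate 3 at 0.21. The value of 0.30 was that of control replicate 1 and SETD4 OE replicate 2, which deviated in the same sense with base composition. The correlations therefore cannot settle whether libraries were paired. Bmp4 and Bmp6 moved with the offset: with a pseudocount of 0.1 they reached 1.85 and 2.01. Reads were few for Smad6 (24 to 72 per library), Nog (29 to 95) and, in the controls, Bmp4 (22 to 36) and Bmp6 (19 to 63). The spread between libraries was also above counting error for Smad6, at a chi-square per degree of freedom of 6.04 in the controls and 2.39 in SETD4 OE. It was 4.27 and 5.49 for Nog, 12.2 for Bmp6 in the controls and 1.15 for Bmp4 in the controls. The causes of the lost and gained calls were not tested.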

Other observations

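Of the 67 further pathway genes, 31 lay below the filter, and Bmp10 and Gdf2 were at 0 in all libraries. In the fit without a filter (limma), 4 of the 31 were higher and 2 lower, where 26.0% of 30911 genes were called in either direction. The 6 were chosen here after their values were seen. Sostdc1, an antagonist of BMP and Wnt signals, was at 0.163 ± 0.126 FPKM in the controls and 1.05 ± 0.178 FPKM with SETD4 OE (adjusted p = 0.00382). Chrd, which encodes the antagonist chordin, was at 0.567 ± 0.107 and 1.09 ± 0.155 FPKM (adjusted p = 0.0335). The convertase gene Pcsk5 was at 0.157 ± 0.0316 and 0.460 ± 0.0557 FPKM, and the ligand gene Gdf10 at 0.0305 ± 0.0165 and 0.198 ± 0.0885 FPKM. The ligand gene Gdf6 was at 0.373 ± 0.0624 and 0.130 ± 0.0198 FPKM, and Runx2, a target in bone cells, at 0.515 ± 0.0766 and 0.111 ± 0.0240 FPKM.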
